A study of Mus musculus with 20 samples.

Results

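The Skint genes are a mouse family of immunoglobulin-like transmembrane proteins related to the butyrophilins, and the 10 members examined here, Skint1 to Skint10, were the rows of the deposited count table carrying those gene symbols, 10 of 22090 genes in 20 samples. The family was chosen because Skint5 had no counts in the tumors, so every value in cSCC below is a description and not a test. RNA-seq was performed on skin of female SKH-1 mice, 7 months old when assigned to their groups, a hairless strain that forms skin tumors under ultraviolet (UV) radiation: 8 normal skin (NS) samples, 8 actinic keratoses (AK, precancerous lesions) and 4 cutaneous squamous cell carcinomas (cSCC). By the protocol, 4 unirradiated mice gave 1 NS each, and 4 UV irradiated mice gave 1 NS, 2 AK and 1 cSCC each, so that the 8 NS came from 8 mice and the 8 AK from 4. The labels do not say which NS were irradiated, which AK grade a sample had or which tissues shared a mouse, so NS and AK were each treated as 1 group, the tissues were unpaired, and p-values may be too small where tissues of 1 mouse resemble each other. Irradiation, the mouse and the tissue cannot be told apart for AK and cSCC.

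Skint1, the founding member, is made by thymic epithelium and by keratinocytes of the epidermis, and it is required for the selection and maturation of the gamma delta T cells that populate mouse epidermis (dendritic epidermal T cells). These T cells sit between keratinocytes, sense stress in them through receptors such as NKG2D, and are known for surveillance against skin carcinogenesis and for wound repair. The other members share the immunoglobulin domains and the membrane spanning region of Skint1, and their separate roles are less well defined.

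The 10 genes formed an unbroken cluster on mouse chromosome 4 (GRCm38, GENCODE M21). It spanned 2.08 Mb from Skint8 to Skint5 and held 0 other protein-coding genes, with 6 members on the plus strand and 4 on the minus strand. Skint5 (ENSMUSG00000078598, minus strand) was the longest, at 521.6 kb for 4.59 kb of exon, followed by Skint6 (ENSMUSG00000087194, minus strand), at 482.4 kb for 3.82 kb of exon. Skint1 (ENSMUSG00000089773, plus strand) spanned 23.3 kb with 3.01 kb of exon. Of the 75-base stretches in the transcripts, Skint5 shared 1.08% with Skint6, Skint7 shared 4.60% with Skint8, and the others shared 0 within the family, so the counts of these 2 pairs are slightly less certain. The antisense gene Gm12823 overlaps Skint6 and pseudogenes overlap Skint2, Skint4 and Skint6. The strand used in counting is not given in the sources used here, so reads of Skint6 and its antisense partner could not be separated.

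The RefSeq promoter table (GRCm38.p6) held windows for all 10 members, 11 in all because Skint4 has an additional start. Skint5 and Skint6 had the most similar 250 bases before the start: 222 of 250 bases (88.8%) were identical, against 57.8% for the next of 66 pairs (Skint11, an unlisted neighbor, included) and a median of 51.2%. These windows are shown because Skint6 also had the highest correlation with Skint5 among the 9 other members within NS, but not within AK, as described further on. They are chr4:113999504-113999753 for Skint5 and chr4:113286974-113287223 for Skint6, both on the minus strand, and capitals mark the 28 bases that differ.
Skint5: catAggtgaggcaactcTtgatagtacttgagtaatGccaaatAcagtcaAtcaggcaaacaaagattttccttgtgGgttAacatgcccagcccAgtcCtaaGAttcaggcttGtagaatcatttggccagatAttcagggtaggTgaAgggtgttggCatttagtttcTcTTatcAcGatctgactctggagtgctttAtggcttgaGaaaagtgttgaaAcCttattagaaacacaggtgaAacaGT
Skint6: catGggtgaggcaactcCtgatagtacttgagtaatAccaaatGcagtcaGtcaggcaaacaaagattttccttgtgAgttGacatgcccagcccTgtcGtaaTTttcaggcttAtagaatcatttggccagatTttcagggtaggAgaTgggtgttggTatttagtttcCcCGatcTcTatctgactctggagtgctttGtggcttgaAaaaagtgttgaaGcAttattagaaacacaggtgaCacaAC

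A 14-letter run was shared by the windows of 5 members, Skint1, Skint3, Skint4, Skint5 and Skint6, and by no other of 32851 promoter windows in the table (0.0152% hold it). It was picked from these windows, so its rarity is a description. The windows of Skint1 (chr4:112006019-112006268, plus strand) and Skint3 (chr4:112231995-112232244, plus strand), the members with the smallest fold changes in AK, are shown with the run in capitals. It begins 231 bases before the start of Skint1, 103 before that of Skint3 and 228 before those of Skint5 and Skint6.
Skint1: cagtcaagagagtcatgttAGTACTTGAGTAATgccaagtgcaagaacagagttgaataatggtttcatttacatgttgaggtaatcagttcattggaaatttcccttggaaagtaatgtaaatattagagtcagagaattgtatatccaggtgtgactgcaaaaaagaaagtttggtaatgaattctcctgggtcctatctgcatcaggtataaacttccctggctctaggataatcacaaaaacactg
Skint3: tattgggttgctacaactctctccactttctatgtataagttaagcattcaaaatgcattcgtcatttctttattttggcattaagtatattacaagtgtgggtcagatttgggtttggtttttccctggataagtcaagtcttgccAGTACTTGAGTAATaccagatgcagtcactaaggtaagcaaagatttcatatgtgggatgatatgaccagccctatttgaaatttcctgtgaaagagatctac

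Common promoter motifs were counted on both strands of the 250 bases. TATAAA stood in 6 of 10 members (Skint1, Skint2, Skint4, Skint7, Skint8 and Skint9) and in 12.4% of all promoters, whereas it was not in the windows of Skint3, Skint5, Skint6 or Skint10. CACCC was in 5 members (52.0% of all promoters), CCAAT in 4 (33.8%) and GGAAGT in 2 (19.7%). TGANTCA and AGGTCA were in 0 members (6.75% and 14% of all promoters).

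The count table held 775750 to 14055206 counts per sample, and levels are CPM (counts divided by the TMM-adjusted library size and put on 1 shared scale). Counts as low as 3 correspond to 0.225 CPM in the deepest library (AK replicate 10) and 3.78 CPM in AK replicate 12, and such floors, like the intervals below, cover counting error only. Of 4 cSCC libraries, 2 stood apart. Replicate 20 held lung epithelium genes at a summed 35921 CPM, against 11.1 to 59.3 CPM in all other samples, and replicate 21 held heart muscle genes at 55249 CPM, against 8.30 to 151 CPM. Values in cSCC are therefore given per replicate and, for the members and some of the gene lists, also without these 2 libraries. Replicate 18 had a TMM factor of 0.509, against 0.852 to 1.22 in the other samples, so its levels on library size alone would be 0.509 times those given. Epidermal identity was present in NS and AK, where 10 basal keratinocyte genes summed to 5523 to 16522 CPM in NS and 9538 to 14666 CPM in AK.

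In NS all 10 members were detected in all 8 samples. Per kb of exon, the mean levels were 183 ± 109 CPM per kb for Skint9, 93.9 ± 30.3 for Skint3, 31.4 ± 11 for Skint1, 31.0 ± 15.7 for Skint10, 23.5 ± 18 for Skint6, 16.5 ± 12 for Skint5, 14.8 ± 6.11 for Skint4, 13.1 ± 7.45 for Skint2, 4.87 ± 3.94 for Skint7 and 2.12 ± 1.33 for Skint8 (SD, n = 8). The exon lengths come from GENCODE M21, and the gene models behind the counts are not known, so the order can depend on them. In CPM alone, Skint3 (361 ± 116) was above Skint9 (252 ± 149.5, SD, n = 8). Neighbors in the per-kb order were compared within samples. Skint9 was above Skint3 in 7 of 8 NS samples, and Skint3 was above Skint1 in 8 of 8. Skint1 and Skint10, Skint5 and Skint4, Skint4 and Skint2, and Skint7 and Skint8 could not be ordered, since the higher mean was higher in only 3, 3, 4 and 5 of 8 samples. In AK the per-kb mean of Skint3 (69.2 ± 21.1) was above that of Skint9 (59.2 ± 47.3), and Skint1 stayed in its place in the order (28.7 ± 6.46, SD, n = 8).

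**Figure D1:**
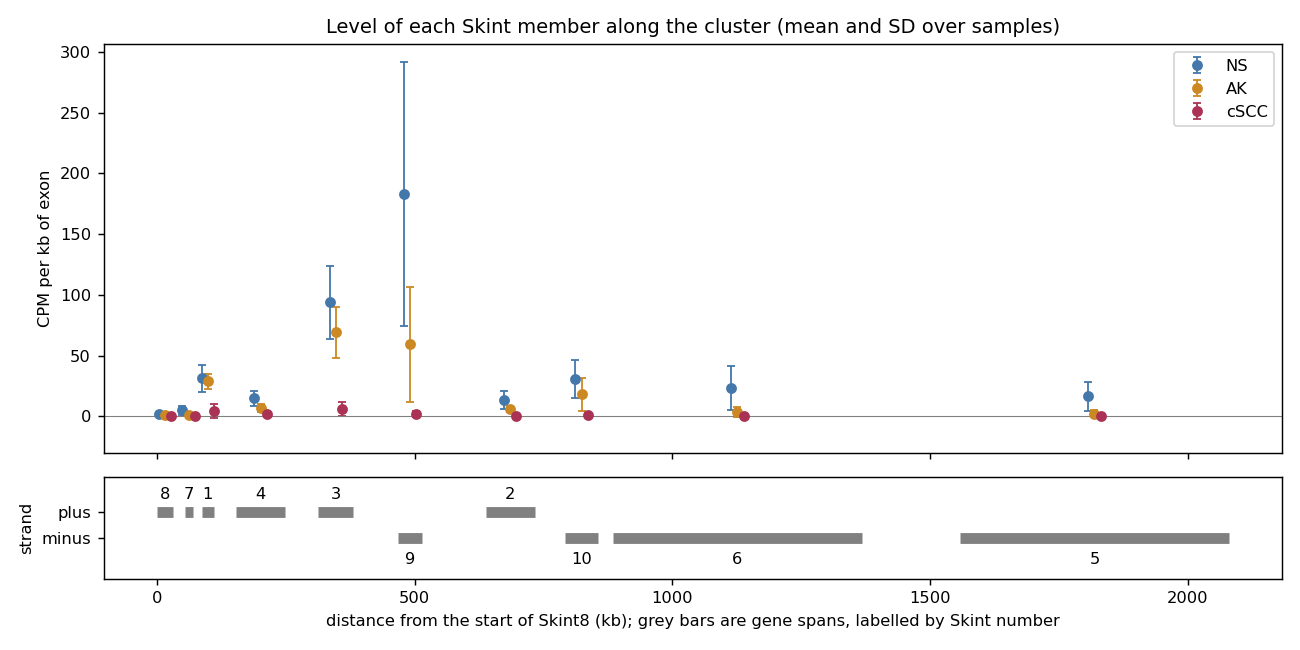
Mean level of each member in CPM per kb of exon (upper panel, bars are SD; 8 NS, 8 AK and 4 cSCC samples) against its distance in kb from the start of Skint8, with gene spans by strand below. Skint9 and Skint3 stand highest in NS, at 183 and 93.9 CPM per kb, Skint5 and Skint6 cover the long gene spans at the right end, and every cSCC mean is 5.98 CPM per kb or lower.

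The members that differed least among NS were Skint1 and Skint3, whose highest NS sample was 2.65 and 2.69 times the lowest. Skint5 and Skint6 differed more, at 14.2 and 25.4 times, and Skint7 most, at 135 times. NS replicate 8 was lowest for 9 of 10 members, the exception being Skint1, and NS replicate 4 was highest for Skint2, Skint4, Skint5, Skint6, Skint9 and Skint10. The ratio of Skint5 to Skint1 counts ran from 0.196 in NS replicate 8 to 1.55 in NS replicate 4, with 5 samples at 0.708 or above and 3 (replicates 6, 7 and 8) at 0.338 or below.

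Across the 8 NS samples, log2(CPM + 1) of each other member was related to that of Skint5, 9 relations in all, with exact permutation over all pairings and Benjamini-Hochberg adjustment over the 9. Skint6 followed Skint5 most closely (Pearson r = 0.990, exact permutation p = 2.48e-05, the smallest it can give, adjusted p = 0.000223, Spearman rho = 1.00, p = 4.96e-05, n = 8). Without the 2 samples farthest from the Skint5 median, r was 0.978. Skint10 (r = 0.952), Skint4 (r = 0.946) and Skint9 (r = 0.935) followed, with exact permutation adjusted p between 0.000891 and 0.00195 (n = 8), and without those 2 samples r stayed at 0.804 to 0.852. Within NS, r was also 0.81 to 0.97 for 10 genes outside the family, picked by their likeness to Skint5 over NS and AK. The share of all genes with such r is not given.

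Skint1 showed no such relation (r = 0.192, exact permutation p = 0.641, adjusted p = 0.641, rho = -0.0238, p = 0.977, n = 8), and without the 2 samples r was -0.308. Skint3 (r = 0.867) and Skint2 (r = 0.847) passed by r, with exact permutation adjusted p of 0.00699 and 0.00616 (n = 8), but had an adjusted p of 0.0552 by rho. Skint7 (r = 0.814, exact permutation adjusted p = 0.0176, n = 8) had rho = 0.524 with an adjusted p of 0.253, and its r without the 2 samples was 0.613. For Skint2 that value was 0.542, so these relations rest in part on those samples. Skint8 did not pass (r = 0.576, exact permutation adjusted p = 0.153, n = 8). NS from irradiated and unirradiated mice are pooled here, and the part of irradiation in these relations was not tested. The order of the members differed within the 8 AK samples, which came from 4 mice and are given as a description. There r with Skint5 was 0.946 for Skint10, 0.906 for Skint9, 0.704 for Skint3, 0.688 for Skint1 and 0.673 for Skint4. It was 0.578 for Skint6, 0.409 for Skint2, 0.335 for Skint7 and 0.303 for Skint8.

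**Figure D2:**
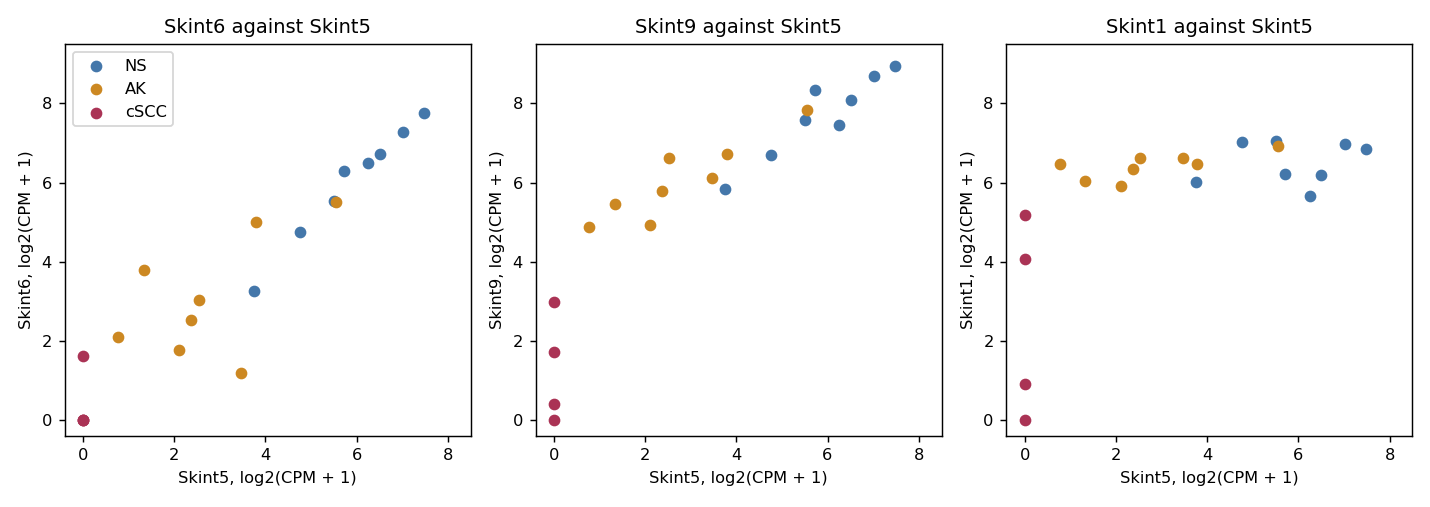
Levels of Skint6, Skint9 and Skint1 against Skint5 in the 20 samples, all as log2(CPM + 1), with NS in blue, AK in orange and cSCC in red. In NS the points of Skint6 rise with Skint5 (r = 0.990) and those of Skint1 do not (r = 0.192), and in AK Skint1 lies within its NS range while most Skint5 values lie below theirs.

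AK was compared with NS to see how the family stood in the precancerous lesion. Skint5, Skint6, Skint9 and Skint4 were lower in AK and passed the test, and Skint1 and Skint3 had the smallest fold changes and did not. All 10 members were tested. The 4 members called lower, of 10, stand beside 2.38% of all 11677 genes called lower, and 0 members were called higher, beside 2.26% of all genes. The median log2 fold change of the 10 was -1.12, against -0.04 over all genes tested. In edgeR, 8 of the 10 had an unadjusted p under 0.05. The share of all genes at that limit is not given, here or for the lists below, so nothing is read from such counts. In these whole-tissue samples, fewer cells of a type and less RNA per cell cannot be told apart.

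Skint5 lay between 12.5 and 177 CPM in NS (median 63.1) and between 0.701 and 45.8 CPM in AK (median 4.49). AK replicate 10 was the high AK sample, the next being replicate 17 at 12.8 CPM, and 6 of 8 AK samples lay below the lowest NS sample. The log2 fold change was -2.80 ± 0.67 (SE), with an adjusted p of 0.0266 in edgeR's quasi-likelihood test. Leaving out each sample in turn gave -3.93 to -2.50, with an adjusted p from 0.00217 to 0.0586 that passed in 13 of 16 cases (not without NS replicate 4, AK replicate 15 or AK replicate 16), and without AK replicate 10 the fold change was -3.93.

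Skint6 ranged from 8.52 to 217 CPM in NS (median 82.6) and from 1.26 to 44.7 CPM in AK (median 5.99). The groups overlapped, with 5 of 8 AK samples below the lowest NS sample. Its log2 fold change was -2.66 ± 0.64, with an adjusted p of 0.0278 in edgeR's quasi-likelihood test, which passed in 12 of 16 cases with a sample left out (not without NS replicate 4 or AK replicates 13, 15 or 16).

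Skint9 ranged from 56.6 to 489 CPM in NS (median 230.2) and from 28.3 to 225 CPM in AK (median 61.0). Here 4 of 8 AK samples were below the lowest NS sample, and replicate 10 was again the high AK sample. The log2 fold change was -1.65 ± 0.45 (edgeR adjusted p = 0.0388). Skint4 ranged from 22.8 to 103 CPM in NS (median 72.3) and from 10.2 to 55.1 CPM in AK (median 30.9), a log2 fold change of -1.16 ± 0.31 (edgeR adjusted p = 0.0389). These 2 members passed in only 5 and 4 of 16 cases with a sample left out.

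Skint1, the member needed by dendritic epidermal T cells, ranged from 49.8 to 132 CPM in NS (median 93.4) and from 59.1 to 120.5 CPM in AK (median 87.0). The AK values lay within the NS range, and the log2 fold change was -0.14 ± 0.21 (edgeR adjusted p = 0.705). Skint3 ranged from 186 to 501 CPM in NS (median 385) and from 164 to 389.7 CPM in AK (median 241), with a log2 fold change of -0.46 ± 0.22 (edgeR adjusted p = 0.203). The other 4 members had negative fold changes that missed the threshold: -2.13 ± 0.67 for Skint7 (adjusted p = 0.0657), -1.08 ± 0.40 for Skint2 (adjusted p = 0.112), -1.07 ± 0.46 for Skint8 (adjusted p = 0.155) and -0.79 ± 0.40 for Skint10 (adjusted p = 0.224), all from edgeR.

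Skint7 had a median of 18.9 CPM in NS and 4.79 CPM in AK with wide overlap, since 2 NS samples (replicates 7 and 8) lay at 1.59 and 0.304 CPM. For 0 of 10 members was every AK sample below every NS sample, beside 0.128% of all genes. AK replicate 10 was the highest AK sample for Skint1, Skint4, Skint5, Skint6, Skint7, Skint9 and Skint10 and the next highest for the other 3. The cause was not tested.

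The number of members called depended on the samples, as did the number of all genes called (542 of 11677 in the main fit). The members called were 0 without NS replicate 4, AK replicate 15 or AK replicate 16, where 164, 261 and 231 of all genes were called. They were 1 without AK replicate 13 (181 of all genes). They were 2 without any single one of NS replicates 1, 2 and 5 or AK replicates 11, 12, 14 and 17 (244 to 453 of all genes). They were 6 without NS replicate 8, where 920 of 11815 genes were called. Every member had a negative fold change in each of these fits. With all 20 samples in 1 fit, where 9 of 12847 genes were called, 0 members were called by edgeR, although the fold changes of Skint5, Skint6, Skint9 and Skint4 were -2.82, -2.67, -1.64 and -1.15 (adjusted p = 0.0848, 0.0824, 0.146 and 0.319).

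**Figure D3:**
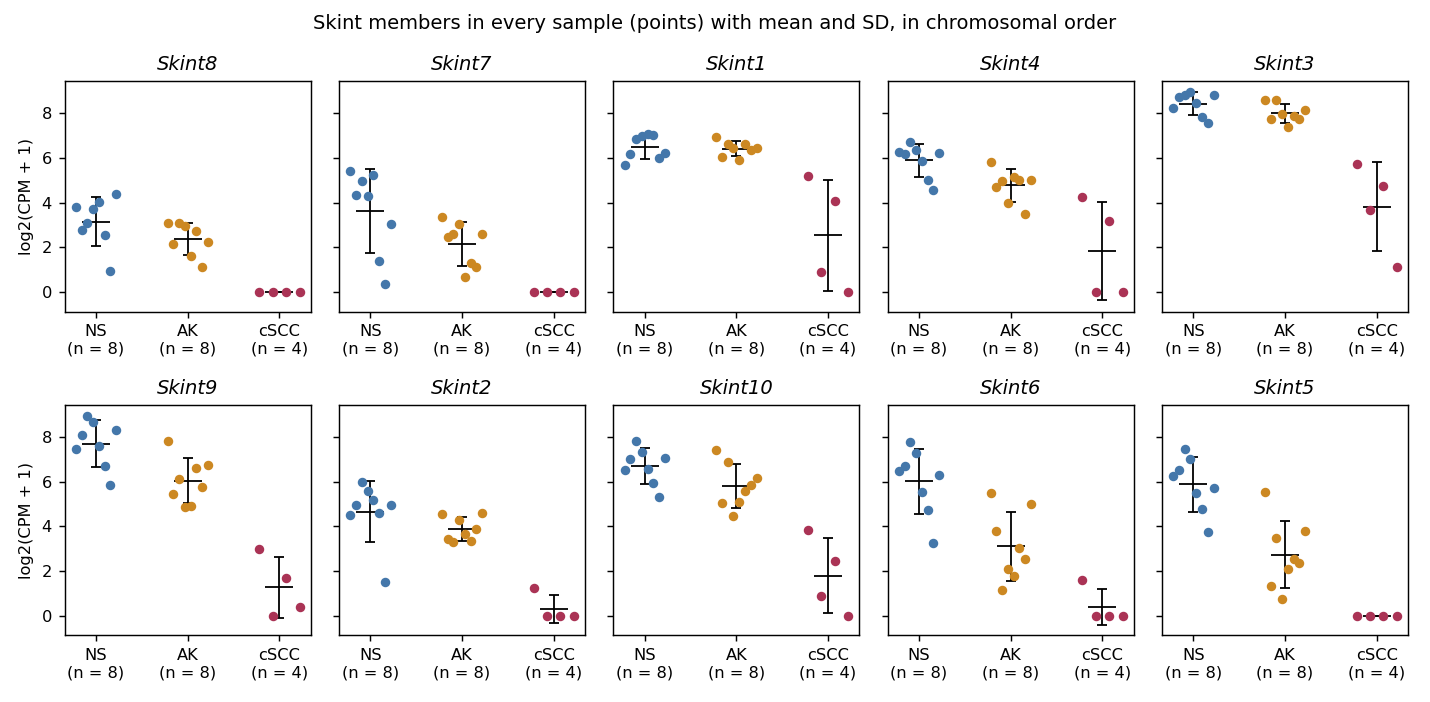
Level of each member as log2(CPM + 1) in every NS, AK and cSCC sample (points), with the mean and SD of each group in black, in chromosomal order. Skint5 and Skint6 in AK lie mostly below NS, Skint1 in AK lies within the NS range, and Skint5, Skint7 and Skint8 are at 0 in all 4 cSCC samples.

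**Figure D4:**
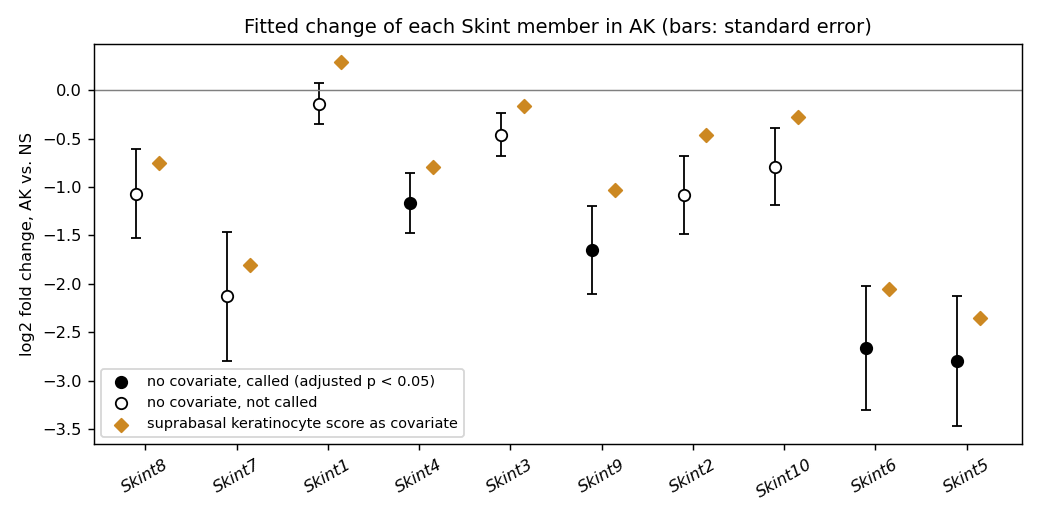
Fitted log2 fold change of each member in AK vs. NS (8 samples each) with its standard error, filled where the member was called, and the same change with the suprabasal keratinocyte score as a covariate (diamonds, no error drawn). Fold changes run from -2.80 for Skint5 to -0.14 for Skint1, and with the covariate from -2.35 for Skint5 to 0.29 for Skint1.

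The make-up of the family differed accordingly. Its 10 members summed to 392 to 1877 CPM in NS (median 1106) and to 339.9 to 1080.4 CPM in AK (median 487). Skint3 held a median of 34.8% of the family's counts in NS and 48.4% in AK, Skint1 6.83% and 16.5%, Skint9 20.6% and 11.4%, and Skint5 5.93% and 0.965%. The ratio of Skint5 to Skint1 counts had a median of 0.874 in NS and 0.0542 in AK, where AK replicate 10 was highest at 0.380, above 3 NS samples. These shares rest on the same counts as the fold changes above.

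Genes that varied with Skint5 over the 16 NS and AK samples were ranked by Pearson r of log2(CPM + 1) among 11676 genes, as a description, since the difference between the groups is part of r. Among the members Skint9 was closest (r = 0.94), followed by Skint6 and Skint10 (both 0.89), and Skint1 was farthest (0.31). The 10 closest genes outside the family were Adh6a (r = 0.97), Krt23, Lce1m and Dapl1 (0.94 each), Orm1 and Anxa9 (0.92 each), and Orm3, Krt77, Serpinb7 and Hsf2 (0.91 each). Krt23 and Krt77 encode keratins, Lce1m a late cornified envelope protein, Orm1 and Orm3 orosomucoids, and Adh6a an alcohol dehydrogenase. Within the 8 NS samples alone, r was 0.81 to 0.97 for these 10, and within the 8 AK samples 0.68 to 0.95. Krt77 was at 832 ± 729 CPM in NS and 29.2 ± 60.9 CPM in AK (SD, n = 8), a difference that the ranking over both groups used in part.

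Genes that share keratinocyte or T cell roles with the family were then examined in AK. The T cell list of 18 genes had 12 in the table. Trdc, Tcrg-C1, Tcrg-C2, Tcrg-C4, Tcrg-V5 and Trdv4, which define gamma delta T cells, had no row, so gamma delta T cells could not be told from other T cells. Of 9 tested, 3 were called lower and 0 higher in AK (median log2 fold change -0.60). Thy1, a surface protein of mouse T cells, was 37.4 to 89.8 CPM in NS and 21.6 to 36.9 CPM in AK. Every AK sample was thus below every NS sample, as for 0.128% of all genes tested. The log2 fold change of Thy1 was -0.87 ± 0.17 (edgeR adjusted p = 0.0156). Cd7, a T cell surface protein, changed by -1.89 ± 0.51 (edgeR adjusted p = 0.0382) and Cd247, the zeta chain of the T cell receptor complex, by -1.54 ± 0.44 (edgeR adjusted p = 0.0487). Cd3g, a chain of the same complex, was 66.4 ± 36.7 CPM in NS and 43.1 ± 22.1 CPM in AK (SD, n = 8) and was not called, with an edgeR adjusted p of 0.248. Cd3e was too low to be tested (4.13 ± 3.64 and 1.10 ± 0.739 CPM, SD, n = 8). Thy1 was called in all 16 fits with a sample left out, Cd7 in 6 and Cd247 in 2, so the count of 3 dropped to 1 (Thy1) without any single one of NS replicates 1, 2, 4 and 5 or AK replicates 11, 12, 13, 15, 16 and 17. Of the tested genes that were not called, Klrk1, which encodes NKG2D, and Jaml had positive fold changes (0.68 ± 0.48 and 0.49 ± 0.27, edgeR adjusted p = 0.393 and 0.275). The 12 genes summed to 159 to 369 CPM in NS and 89.3 to 297 CPM in AK. The part of T cell numbers in the Skint values was not tested.

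Of 8 tested keratinocyte genes that signal to epidermal T cells, 0 were called in AK by edgeR, including H60c, a ligand of NKG2D, Cxadr, the ligand of the costimulator Jaml, and Cdh1 (E-cadherin), with median log2 fold change -0.26. At an unadjusted p under 0.05, 2 of the 8 passed, and DESeq2 and limma voom called 1, Ccl27a. Ccl27a, a skin T cell chemokine, was closest to the threshold (-1.40 ± 0.45, edgeR adjusted p = 0.0692). Of the butyrophilin list, only Skint11, which lies beyond Skint5 on the chromosome, was expressed enough to be tested, with a log2 fold change of -0.45 ± 0.28 (edgeR adjusted p = 0.328).

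Of 15 suprabasal keratinocyte genes, which mark the differentiating layers of the epidermis, 3 were called lower in AK (Krt2, a terminal differentiation keratin, and Lor and Flg2, of the cornified layer) and 0 higher, while the other 12 were not called, with a median log2 fold change of -0.43. Lor was called in all 16 fits with a sample left out, Flg2 in 14 and Krt2 in 5, and the count ran from 1 (without NS replicate 4 or AK replicate 13) to 5 (without NS replicate 8 or AK replicate 10). Their summed level was 20618 to 63887 CPM in NS and 18353 to 53042 CPM in AK. Krtdap, the most abundant of them, was at 15023 ± 5627 CPM in NS and 8876 ± 4287 CPM in AK (SD, n = 8) and was not called, with an edgeR adjusted p of 0.136. With the mean log2(CPM + 1) of the 15 as a covariate, only Skint5 of the members was called in AK (log2 fold change -2.35, edgeR adjusted p = 0.0403), beside 0.985% of all genes, and the log2 fold change of Skint1 turned to 0.29. The hair follicle list had 1 of 7 called and the sebaceous gland list 2 of 9, lower in both lists. By edgeR the basal, alpha beta T cell, Langerhans cell, fibroblast and endothelial lists had 0 called of 10, 4, 6, 8 and 7, with 5, 2, 1, 0 and 0 at an unadjusted p under 0.05. DESeq2 called 3, 1, 0, 0 and 0 of them and limma voom 2, 1, 1, 0 and 0. In the alpha beta T cell list the receptor genes Trac, Trbc1 and Trbc2 had no row, so alpha beta T cells could not be told from other T cells. Its 4 tested genes had a median log2 fold change of 1.42. They were Cd28 at 1.48 ± 0.49, Cd8b1 at 1.46 ± 0.70, Cd8a at 1.38 ± 0.63 and Cd5 at -0.15 ± 0.36 (edgeR adjusted p = 0.0767, 0.207, 0.186 and 0.829). In the basal list, whose median was -0.15, Lama3 (0.97 ± 0.32), Itga6 (0.74 ± 0.22) and Trp63 (0.58 ± 0.17) also had positive fold changes and were not called (edgeR adjusted p = 0.0767, 0.0552 and 0.0553). Of its 10 genes, 6 had negative fold changes. Among these, Krt15 (-1.09 ± 0.38) and Dst (-0.54 ± 0.20) were not called either (edgeR adjusted p = 0.0861 and 0.115).

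In cSCC the values of all 10 members lay below every NS sample, beside 5.73% of all genes, and those of 8 below every AK sample, beside 6.84% of all genes, the exceptions being Skint4 and Skint6. At the level of the lowest NS sample, Skint7, Skint8 and Skint2 would have given under 3 counts in 4, 3 and 2 of the 4 libraries. At that of the lowest AK sample, Skint5, Skint7 and Skint8 would have given under 3 counts in 3 of the 4, so a separation from the lowest samples was not detectable there. Since the family was chosen on these tumors, nothing is read from these counts. The 10 members together had 187, 31, 50 and 9 counts in cSCC replicates 18, 19, 20 and 21, or 129.9, 13.6, 56.9 and 1.49 CPM. Replicate 18 was highest and replicate 21, the deepest cSCC library and the one with heart genes, was lowest.

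Skint5, Skint7 and Skint8 had 0 counts in each of the 4 libraries, as had 0.289% of the genes tested against NS. At the largest floor of 3 counts in a cSCC library (3.41 CPM), Skint5 was at least 22.2-fold lower than the NS mean of 75.7 ± 55.2 CPM (SD, n = 8) and at least 3.05-fold lower than the AK mean of 10.4 ± 14.9 CPM (SD, n = 8). Without AK replicate 10 the AK mean was 5.34 ± 4.47 CPM (SD, n = 7) and the bound 1.57-fold. Skint7 was at least 5.69-fold and Skint8 at least 2.90-fold lower than NS. At the level of the lowest NS sample, Skint5 would have given 18, 28.4, 11 and 75.5 counts in replicates 18 to 21. At that of the lowest AK sample it would have given 1.01, 1.60, 0.616 and 4.24 counts, so a level like the lowest AK sample was not detectable in 3 of the 4 libraries.

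Just outside the choice, Skint2 had 2 counts and Skint6 had 3, all in replicate 18 (1.39 and 2.08 CPM). Pooled over the 4 libraries, the NS mean was 167 times the level of Skint2 (95% Poisson interval 46.1 to 1375) and 319 times that of Skint6 (109 to 1549). Without replicate 21, the deepest of the 4, these were 71.9 times (19.9 to 594) and 138 times (47.2 to 669).

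The 5 remaining members were measurable in more tumors. Skint3 was detected in all 4, at 52.8, 11.9, 26.2 and 1.16 CPM in replicates 18 to 21, against 186 CPM in the lowest NS sample, with a fitted log2 fold change of -3.96 ± 0.74 against NS. Skint1 was at 35.4, 0.879, 15.9 and 0 CPM, against 49.8 CPM in the lowest NS sample (-2.91 ± 0.94). Replicates 18 and 20 had more Skint1 than replicates 19 and 21.

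Skint4 was at 18.1, 0, 7.96 and 0 CPM (-3.45 ± 0.99 against NS), and its highest tumor lay above the lowest AK sample at 10.2 CPM. Skint9, the highest member per kb in NS, was at 6.95, 0, 2.28 and 0.331 CPM (-6.96 ± 1.01). Skint10 was at 13.2, 0.879, 4.55 and 0 CPM (-4.80 ± 0.95). Per kb of exon, Skint3 (5.98 ± 5.82 CPM per kb) and Skint1 (4.33 ± 5.51) stood highest in cSCC (SD, n = 4). Without replicate 18 the fold changes against NS were -4.60 for Skint1, -4.90 for Skint3, -5.58 for Skint4, -8.87 for Skint9 and -6.84 for Skint10. Without replicates 20 and 21 they were -2.42, -3.48, -2.92, -6.33 and -4.13 in the same order.

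As a description from which nothing is read, 10 of 10 members met the limits of the call used for AK in cSCC against NS, beside 7.65% of 12097 genes called lower. Against AK 9 of 10 did, beside 8.34% of 12032 genes called lower, Skint4 being the exception. In either direction, 19.3% and 24.4% of all genes were called. By limma voom the counts were 5 and 4, Skint5 being in neither, beside 10.8% and 10.6% of all genes called in either direction. By edgeR without replicates 20 and 21, the counts were 7 (not Skint1, Skint4 or Skint7) and 6 (not Skint4, Skint5, Skint6 or Skint7). Beside them, 12.2% and 12.6% of all genes were called in either direction, fewer than with all tumors. With Skint5, Skint7 and Skint8 set at their bounds, the median log2 fold change was -4.22 against NS and -3.13 against AK, and 0.14 and 0.17 over all genes. Both comparisons share the cSCC samples.

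The suprabasal keratinocyte genes were lower in the same tumors, 10 of 15 against NS with 0 higher (6 without replicate 20, and 6 without replicates 20 and 21), and summed to 21800, 3305, 3966 and 1764 CPM in replicates 18 to 21. The basal keratinocyte genes summed to 18129, 19470, 5575 and 3986 CPM, so that in replicate 19 they were above the highest NS sample (16522 CPM) while the Skint family was below the lowest (392 CPM). The largest part of the basal sum in cSCC was Krt14 (8662 ± 5967 CPM), followed by Krt5 (1670.5 ± 1201 CPM, SD, n = 4). Of the 10 basal genes, 4 had negative fold changes against NS. In replicate 18 the place of both keratinocyte lists depended on the scaling. On library size alone, an alternative chosen after seeing the data, its basal sum was 9219.7, within the NS range of 6103 to 16354, and its suprabasal sum 11087, below the NS range of 25066 to 65361. On the same scale the basal sum of replicate 19 was 22191, and the Skint sum of replicate 18 was 66.1, below the NS range of 388 to 2141. The mean log2 suprabasal level of the tumors (4.35 to 7.93) did not overlap that of NS (9.09 to 10.41) or AK (8.21 to 9.92). With it as a covariate 0 members were called in either comparison by edgeR (4 against NS and 2 against AK had an unadjusted p under 0.05), as were only 2 and 0 of all genes, so group and suprabasal level cannot be told apart.

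Of the T cell list, 5 of 11 tested genes were called lower in cSCC than in NS (Cd3g, Cd247, Cd7, Thy1 and Itgae, the integrin that binds E-cadherin) and 0 higher, and 3 of 9 were lower than in AK (Cd3g, Itgae and Klrk1). The list summed to 106, 96.2, 88.7 and 36.2 CPM in replicates 18 to 21, each below the lowest NS sample at 159 CPM. Of the keratinocyte ligands, Cxadr, H60c, Cdh1 and Ccl27a were called lower in cSCC against both groups and 0 were higher. Skint11 was also called lower against both, at 13.2, 0, 3.41 and 0 CPM. Without replicates 20 and 21, the T cell counts were 3 against NS and 2 against AK, and the ligand counts 1 and 2. Without replicate 21 alone, the T cell count against NS was also 3.

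Lists of other cell types moved in the same tumors. Endothelial genes were called higher in 7 of 8 cases against NS and 8 of 8 against AK, with 0 lower, and summed to 106, 146, 243 and 777 CPM in replicates 18 to 21, against 29.9 to 108 CPM in NS. The sum of replicate 18 was thus within the NS range. The highest sums were those of replicates 20 and 21, the libraries with lung and heart genes. Counts of calls without these libraries are not given for the lists in this paragraph. DESeq2 called 6 and 7 of these genes and limma voom 3 and 3. Over all genes, edgeR called 19.3% against NS and 24.4% against AK in either direction. Sebaceous gland genes were called lower in 4 of 9 against NS and 5 of 9 against AK, with 0 higher, and limma voom called 0 and 4. Of 6 Langerhans cell genes, Cd207, which encodes langerin, was called lower and Cd74, the invariant chain of antigen presentation, higher against both groups. Limma voom did not call Cd207 against AK. Of 10 basal keratinocyte genes, Itga3 and Lama3 were called higher and Dst lower against both. DESeq2 called Itga3 against neither, and limma voom did not call Lama3 against AK. The hair follicle list had 1 of 9 called lower against NS, and 1 lower and 2 higher of 7 against AK. By edgeR the fibroblast and alpha beta T cell lists had 0 called of 8 and 2 against NS, where DESeq2, limma voom and an unadjusted p under 0.05 also gave 0. Against AK they had 1 called higher of 8 and 0 of 4, with 2 of the 4 at an unadjusted p under 0.05 and 0 by DESeq2 or limma voom. The part of cell make-up in the Skint values was not tested.

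**Figure D5:**
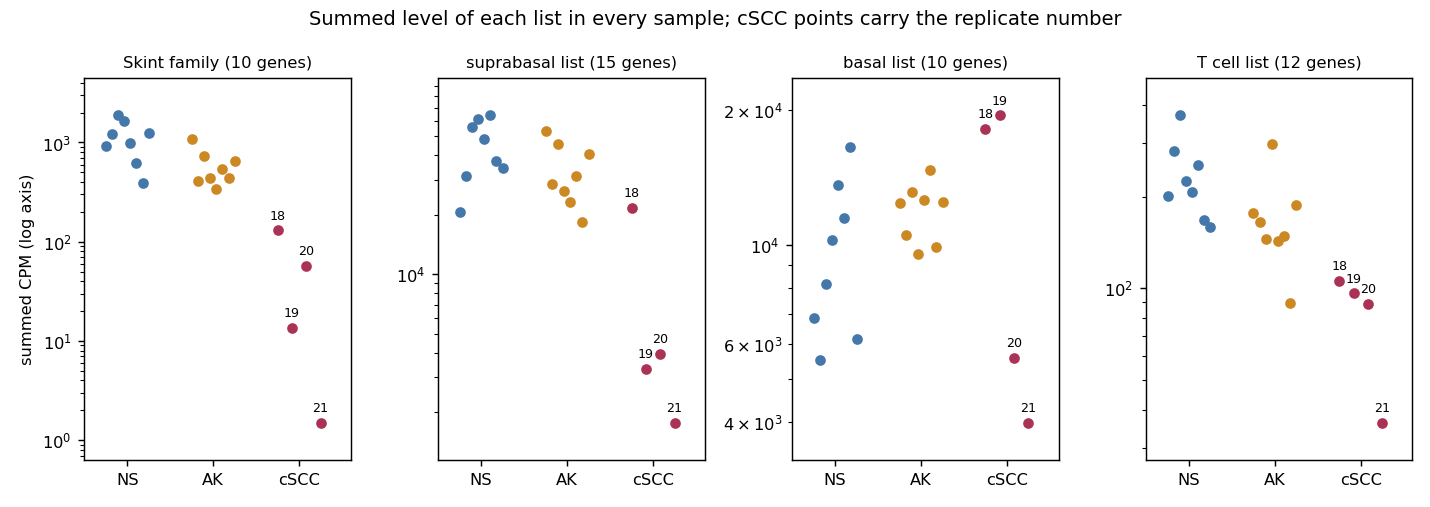
Summed CPM (log axis) of the Skint family, the suprabasal and basal keratinocyte lists and the T cell list in each of 8 NS, 8 AK and 4 cSCC samples, with cSCC replicate numbers. The Skint sum is 1.49 to 129.9 CPM in cSCC against 339.9 CPM or more elsewhere, and the basal sum of cSCC replicate 19 lies above all NS samples. The suprabasal sum of replicate 18 is within the NS range and its basal sum above it with its TMM factor of 0.509, but below and within the NS range on library size alone.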

How the data were processed

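The authors deposited raw counts per gene symbol, not normalized, for 20 mouse samples. Per the labels, the submitters' processing notes name Trimmomatic 0.36, HISAT2 2.0.5, featureCounts 1.5.2 and the mm9 build, whereas the paper's methods name GRCm38 and StringTie. Counts were used by symbol, and coordinates here are from GENCODE M21 on GRCm38.

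CPM used TMM factors over all samples. Pairs of groups were compared in edgeR 4.0.16 (R 4.3.3; quasi-likelihood test, filterByExpr, only the samples compared). A gene was called at a Benjamini-Hochberg adjusted p under 0.05 if its fold change was also above 1.5 or below 0.67. The SE is the log2 fold change divided by the square root of F. Replicates were checked for repeated libraries, and none was found (chi-square of the counts at least 11.3 per degree of freedom in 62 within-group pairs). Tested on simulated data, the AK vs. NS fit recovered 93.3% of 193 genes changed by a log2 fold of 2, the cSCC vs. NS fit 50.3% of 193 and the cSCC vs. AK fit 59.4% of 197. Alternatives used limma 3.58.1 and DESeq2 1.42.0.

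All members were named, with called genes of the T cell, ligand and butyrophilin lists, and the 10 genes most like Skint5. Other genes, such as Krt2, Lor and Flg2, were named after their values were seen. The members and lists were chosen with earlier results of these data known. Total counts per sample ranged from 775750 to 14055206.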

Additional observations from a re-analysis of the deposited data

Results flagged for a closer look

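Of 27 groups of members' CPM tested for a single sample far from the others (groups in which all samples were alike were not tested), 4 held one. Chance flags about 1 in 20, but the groups share samples, and a group with counts in only 1 tumor is always flagged. The 4 are therefore not set against that rate. Skint5 in AK replicate 10 was at 45.8 CPM, with the next AK sample at 12.8 CPM. Skint9 in the same library was at 225 CPM, with the next at 105 CPM. Skint2 and Skint6 in cSCC replicate 18 were at 1.39 and 2.08 CPM, with 0 in the other 3 tumors, which is 2 and 3 counts.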

How the results depend on the processing

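No paired analysis was possible because the labels share no replicate number between groups. In AK vs. NS, members called fell from 4 to 0 with all 20 samples in 1 fit, where 9 of 12847 genes were called, and to 1 with the suprabasal score as covariate. They ran from 0 to 6 with a sample left out, where 164 to 920 of all genes were called. They were 5 with DESeq2 (Skint7 added) and with limma voom (Skint10 added), beside 8.98% and 8.93% of all genes, against 4.64% in the main fit. They were 4 with library size alone, upper quartile factors or no filter (5.63%, 4.98% and 2.24% of all genes). The T cell list's 3 became 1 with no filter, 0 with all samples and 1 with the covariate (1 to 3 with a sample left out). The T cell, ligand and butyrophilin lists together gave 3, which became 1, 0 and 1 in the same settings (1 to 4 with a sample left out). In cSCC vs. NS, members called fell from 10 to 5 with limma voom and to 0 with the covariate (9 to 10 with a sample left out), and in cSCC vs. AK from 9 to 4 and 0 (8 to 10). Of all genes, limma voom called 10.8% and 10.6% in these comparisons, against 19.3% and 24.4% in the main fits. The covariate fits called 2 of 12097 and 0 of 12032 genes. With a sample left out, 1695 to 3181 of all genes were called against NS, and the range against AK is not given. Against NS the T cell list gave 1 with limma voom, 0 with the covariate and 3 without cSCC replicates 20 and 21. It gave 3 to 6 with a sample left out. Against AK it gave 0 with limma voom, 0 with the covariate and 2 to 4 with a sample left out. The 3 lists together fell from 10 to 5, 0 and 5 against NS (8 to 12), and from 8 to 5, 0 and 5 against AK (6 to 9). The covariate turned Skint1 to 0.29 in AK vs. NS, Skint1 to 1.48 and Skint4 to 0.05 in cSCC vs. NS, and Skint1 to 0.02, Skint4 to 1.26 and Skint6 to 0.47 in cSCC vs. AK. All other fold changes of members stayed negative. The cause was not tested. The 7 relations within NS that passed by r also passed by r with a pseudocount of 0.1. Of these, Skint2, Skint3 and Skint7 did not pass by rho. In cSCC depth limits members under 3.41 CPM.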
